A study of Homo sapiens with 6 samples.

Results

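The proteasome and the ubiquitin-conjugating enzymes were examined in Ishikawa H cells, an established line from a well differentiated endometrioid adenocarcinoma, after depletion of MTDH (metadherin, a protein linked to chemoresistance). Members were rows of the deposited array table with exactly 1 gene symbol that begins with PSMA to PSMG and a digit, is POMP, or begins with UBE2 and a letter, using the row with the highest mean for each gene and leaving out chromosomes 8 and 13. This gave 56 of the 14232 genes tested, namely 37 proteasome genes and 19 genes of ubiquitin-conjugating enzymes (E2s). The knockdown cells carried a stable short hairpin RNA (shRNA) against MTDH, and each group had 3 arrays. The control cells were their labelled counterpart, which the study's supporting tables describe as expressing a control shRNA. All cells were of the 1 line and carried the p53 mutation G186T as the labels give it. The labels of these samples describe puromycin-resistant single clones that were grown up and screened by Western blotting, while the study's methods describe this for another line, Hec50co, so that a clone and the knockdown cannot be told apart if each group was 1 clone. Replicates are biological by their titles, though the series also mentions experimental triplicates. The question was whether the transcripts of these genes differ once MTDH is depleted.

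Proteins marked with ubiquitin are degraded by the proteasome. An E1 enzyme activates ubiquitin, an E2 carries it, and an E3 ligase directs it to the substrate. The core particle of the proteasome is a barrel of alpha and beta rings with its proteolytic sites inside, and the regulatory particle, made of a base with a ring of ATPases and of a lid, recognises, unfolds and feeds in the marked protein. In many human cells NFE2L1, a transcription factor of the endoplasmic reticulum membrane, raises the transcription of proteasome genes together when proteasome activity falls, and it binds antioxidant response elements in their promoters.

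MTDH had log2 values of 5.77, 5.89 and 5.84 in knockdown arrays, against 6.89, 7.04 and 6.63 in control arrays, without overlap (log2 difference -1.02 ± 0.17 SE, limma adjusted p = 0.029). The epithelial markers EPCAM, CDH1, KRT8, KRT18 and KRT19 lay above the median of genes on every array (mean over the 5 genes 6.79 to 7.22 in knockdown arrays, against 7.15 to 7.21 in control arrays), and all 5 measured blood markers and all 4 endothelial markers lay below it on every array. Of 6 markers of the endometrial and Mullerian lineage 3 lay above the median on every array, while the hormone receptor genes ESR1 and PGR lay below it. Of 5 fibroblast and smooth muscle markers 3 lay below the median on every array and 2 above it on every array (mean over the 5 genes 3.59 to 3.79 in knockdown arrays, against 3.67 to 4.07 in control arrays). Control replicate 3 stood apart, with a highest correlation of 0.955 with any other array across genes, against 0.979 or more for each of the remaining arrays, and the difference without it is given for members where it was over 1.5 times larger or smaller or had the other sign.

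Promoter sequences were looked at because the proteasome genes are known to be regulated together. RefSeq (GRCh38.p14) held a promoter, 250 bases before to 50 bases after the gene start, for 31 of the 37 proteasome genes and 15 of the 19 E2 genes. The letters of an antioxidant response element, TGACNNNGC on either strand, were present in 11 of the 31 proteasome promoters (35.5%) and in 3 of the 15 E2 promoters (20%), against 14.5% of the 11385 promoters of genes tested. The NF-Y box CCAAT was present in 15 proteasome promoters (48.4%) and 4 E2 promoters (26.7%), against 36.5% of the promoters of genes tested. The motif of nuclear respiratory factor 1, read as GCGCA, any base, then GCGC, was present in 3 proteasome promoters (9.68%) and 5 E2 promoters (33.3%), against 9.05%. These shares are descriptions of small lists and were not tested. The windows below, of 30 bases each, come from proteasome genes with the antioxidant response element. They are those of the 4 highest and the 2 lowest log2 differences among the 11. The same letters stood in promoters at both ends of the range of these 11 genes. Capitals mark the element, which reads GCNNNGTCA where it lies on the other strand.
PSME4: cccggcggctGCAGCGTCAccagcagagcc
PSMB3: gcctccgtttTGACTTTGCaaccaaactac
PSMD1: ggcggcctgaggaggcgacTGACTGAGCag
PSME1: atggcagggcTGACCCCGCctcctccatcc
PSMD5: tggctacagtTGACACGGCcctaacggagg
PSME2: ccctggactgTGACCCAGCcagcaccgcct

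The 6 windows lie at chr2:53971008-53971037 (minus strand) for PSME4, chr17:38752627-38752656 (plus strand) for PSMB3, chr2:231056887-231056916 (plus strand) for PSMD1, chr14:24136098-24136127 (plus strand) for PSME1, chr9:120843037-120843066 (minus strand) for PSMD5 and chr14:24146766-24146795 (minus strand) for PSME2. The PSMD1 element lay just after the gene start and the other 5 before it. The 11 proteasome genes with the element had a median log2 difference of 0.08 (-0.11 to 0.68), and the 20 without it had a median of 0.17 (-0.43 to 0.59). These groups were unequal in place in the table, and the differences varied with that place. Of the 11 genes 2, and of the 20 genes 8, stood before a step in row order described below. The medians are thus not a comparison of promoters.

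None of the 56 genes changed at a limma adjusted p under 0.05, where 0.597% of all genes tested did, and the lowest adjusted p was 0.25, for UBE2T. At an unadjusted p under 0.05, 7 members were higher in knockdown cells and 0 were lower. The 7 were PSMB1, PSMB2, PSME1, PSME4, UBE2B, UBE2F and UBE2T, or 12.5% of the members, against 8.26% of all genes tested higher and 5.83% lower. Among the 2731 genes with a mean log2 value above 6, where most members lay, 510 (18.7%) were higher and 113 lower. In 8 members (14.3%) all 3 knockdown arrays lay above all 3 control arrays, against 8.81% of all genes tested and 18.6% of genes above 6. In 0 members did all knockdown arrays lie below all control arrays, against 11.2% and 6.81%. An absolute log2 difference above 0.5 was seen in 8 of the 56 members, the largest being 0.85 for UBE2F. It was seen in 1660 of the 14232 genes tested and in 620 of the 2731 above 6. For 47 members the 95% interval of the difference lay inside a 2-fold change in either direction, and for the other 9 it did not exclude such a change. The interval lay inside a 2-fold change for 12531 of the 14232 genes tested and for 2115 of the 2731 above 6.

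**Figure D1:**
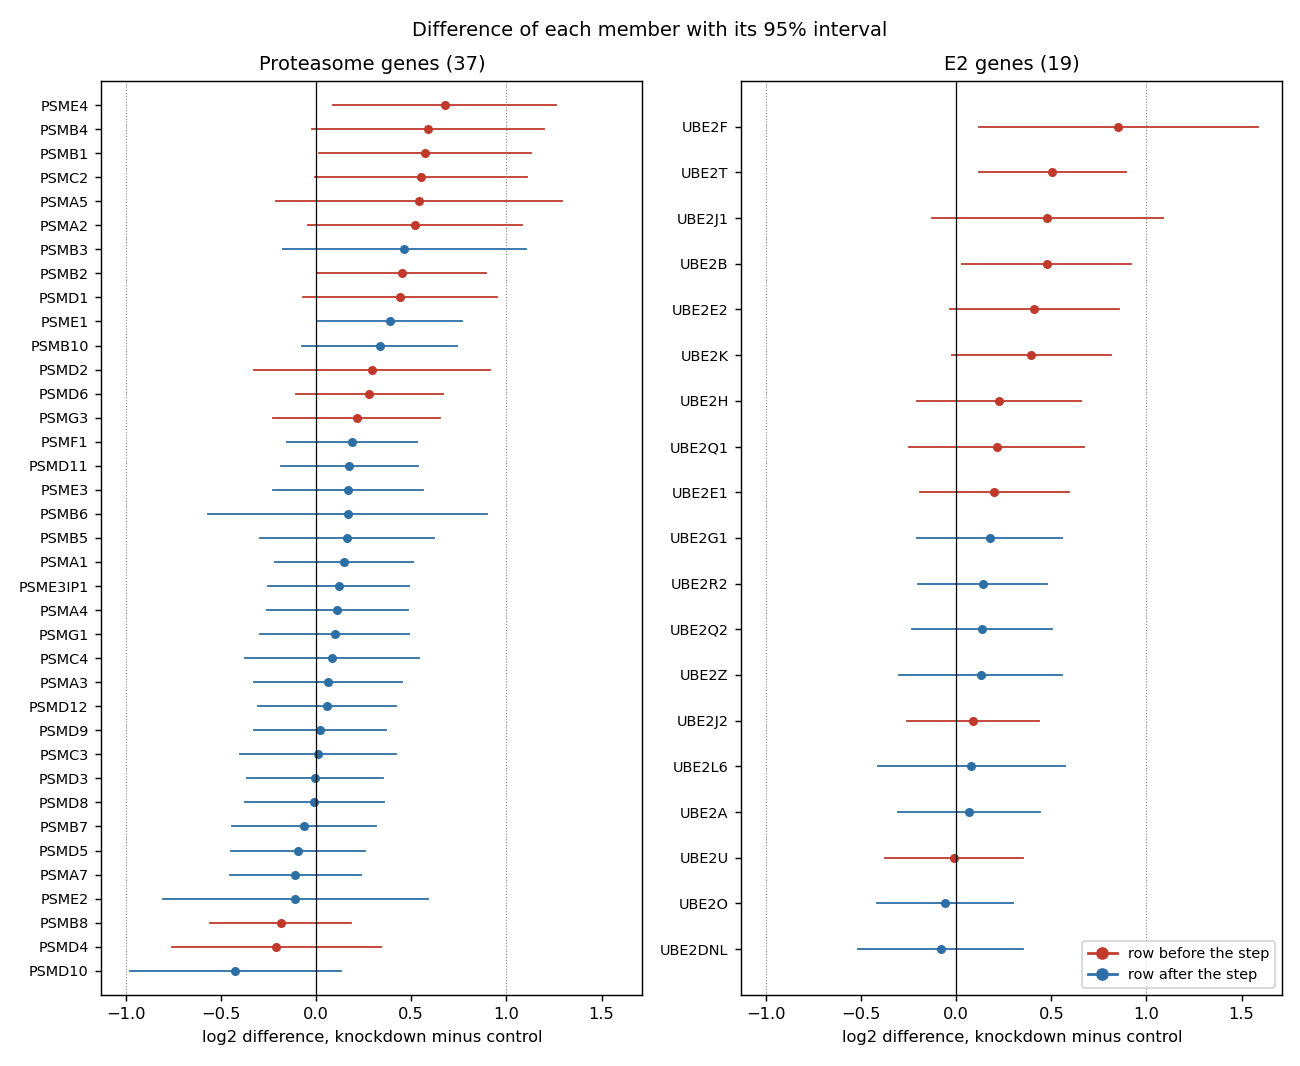
Log2 difference, knockdown minus control, of each member (point) with its 95% limma interval (line), for 37 proteasome genes (left) and 19 E2 genes (right). Red marks rows before row 9015 of the table and blue rows after it, and dotted lines mark a 2-fold change. The 8 members beyond 0.5, PSME4, PSMB4, PSMB1, PSMC2, PSMA5, PSMA2, UBE2F and UBE2T, are all red.

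More members were higher than lower. The log2 difference was positive in 28 of 37 proteasome genes (75.7%), with a median of 0.16, and in 16 of 19 E2 genes (84.2%), with a median of 0.18, against 39.3% of all genes tested and a median of -0.08. The proteasome count depended on the scaling: 16 of 37 were positive after quantile normalization, where the median was -0.02, and 16 of 37 after cyclic loess, where it was -0.03. The E2 genes were positive in 15 of 19 under both, with medians of 0.07 and 0.08. All genes with a mean log2 value above 6 then had medians of 0.03 and 0.02. Most members were bright on the arrays, with a mean log2 value above 6 in 31 proteasome genes and 11 E2 genes. Among all 2731 genes above 6, 70.0% had a positive difference, the median was 0.18, and the knockdown arrays lay wholly above the control arrays in 18.6%. Among members above 6, 24 of 31 proteasome genes (77.4%) and 11 of 11 E2 genes had a positive difference, with medians of 0.16 and 0.23. No test of the members against other bright genes was made.

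**Figure D2:**
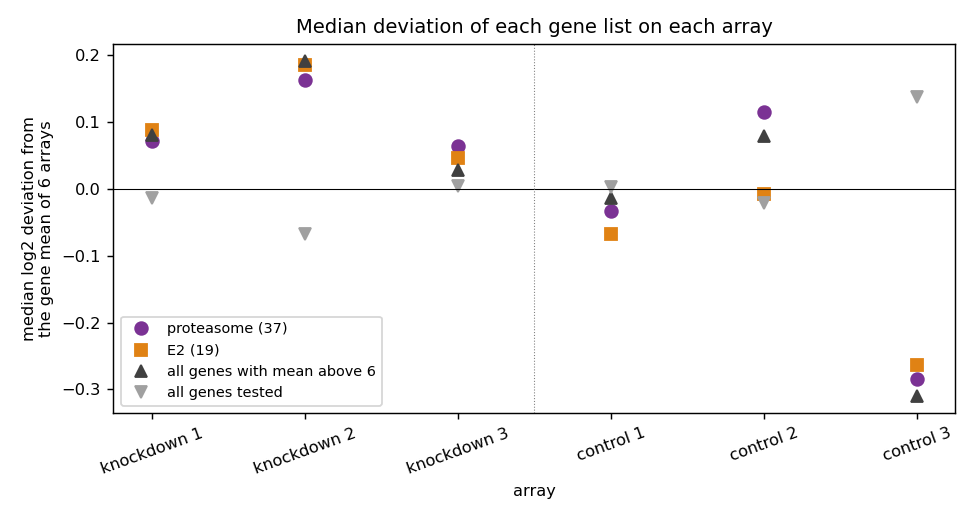
Median, over the genes of a list, of the log2 value on an array minus the gene's mean over the 6 arrays, for proteasome genes, E2 genes, all genes with a mean above 6 and all genes tested. Control replicate 3 is the lowest array for both lists and for genes above 6, at -0.29, -0.26 and -0.31, and the highest for all genes tested, at 0.14.

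Array by array, the proteasome genes lay at a median of 0.07, 0.16 and 0.06 above their own means in knockdown arrays, against -0.03, 0.11 and -0.29 in control arrays. Control replicate 2 was above knockdown replicates 1 and 3, so the groups overlapped. The E2 genes lay at 0.09, 0.19 and 0.05 in knockdown arrays, against -0.07, -0.01 and -0.26 in control arrays, where all knockdown arrays were above all control arrays. This did not hold for the 11 E2 genes above 6, where control replicate 2 was above knockdown replicate 3. They lay at 0.11, 0.32 and 0.05 in knockdown arrays, against -0.07, 0.10 and -0.35 in control arrays. Genes above a mean of 6 lay at 0.08, 0.19 and 0.03 in knockdown arrays, against -0.01, 0.08 and -0.31 in control arrays. Control replicate 3 held the lowest of the 6 values in 33 of the 56 members (58.9%), against 62.1% of all genes above 6 and 25.4% of all genes tested.

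The low values of control replicate 3 varied with where a gene stood in the table. A search over the 4850 rows with a mean above 6 found a step after row 9015 of 22011, where the level of control replicate 3 relative to the other controls differed by -0.28 on the log2 scale, mean of the rows before the step minus mean of those after it. These rows include many with no symbol or several. Over the 2731 genes above 6, the median of control replicate 3 minus the other controls was -0.64 before the step and -0.18 after it. All members on chromosomes 1 to 7 (24 genes) stood before the step and all others (32 genes) after it, so that chromosome and place in the table cannot be told apart. Before the step 21 of 24 members had a positive difference, with a median of 0.43, and control replicate 3 was the lowest array in 17 of them (70.8%, against 39.3% of all genes there). After the step 23 of 32 were positive, with a median of 0.09, and it was the lowest in 16 (50%, against 15.4% of all genes there). Most members had a mean above 6, 18 of 24 before the step and 24 of 32 after it. Among all genes above 6 control replicate 3 was the lowest in 1035 of 1233 before the step and in 661 of 1498 after it.

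Genes above 6 were also taken apart on each side of the step, without closer matching of brightness. The proteasome genes above 6 were positive in 10 of 10 before the step (median 0.48) and in 14 of 21 after it (median 0.08). All genes above 6 were positive in 90.0% before the step (median 0.41) and in 53.5% after it (median 0.02). The E2 genes above 6 were positive in 8 of 8 before the step (median 0.40) and in 3 of 3 after it (median 0.14). Without control replicate 3 the median was 0.07 for proteasome genes, with 22 of 37 positive, and 0.12 for E2 genes, with 18 of 19 positive. For all genes above 6 the median was 0.07, with 1641 of 2731 positive, and over all genes tested 6596 of 14232 were positive. A smaller gap at the step was left without control replicate 3: the median of the members was 0.19 before the step and 0.05 after it, and that of all genes above 6 was 0.19 and -0.04. The number of members under an unadjusted p of 0.05 was then 0 proteasome and 2 E2 genes, against 4 and 3 with all arrays. That number was 11 and 6 without control replicate 2 and 3 and 0 without knockdown replicate 2. Over all genes tested the share under that p, in either direction, moved as well. It was 14.1% with all arrays, 10.7% without control replicate 3, 23.2% without control replicate 2 and 7.17% without knockdown replicate 2. Among genes above 6 the shares were 22.8%, 16.2%, 37.3% and 11%, in the same order. The part of control replicate 3 in the differences is given by these values and was not otherwise tested.

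**Figure D3:**
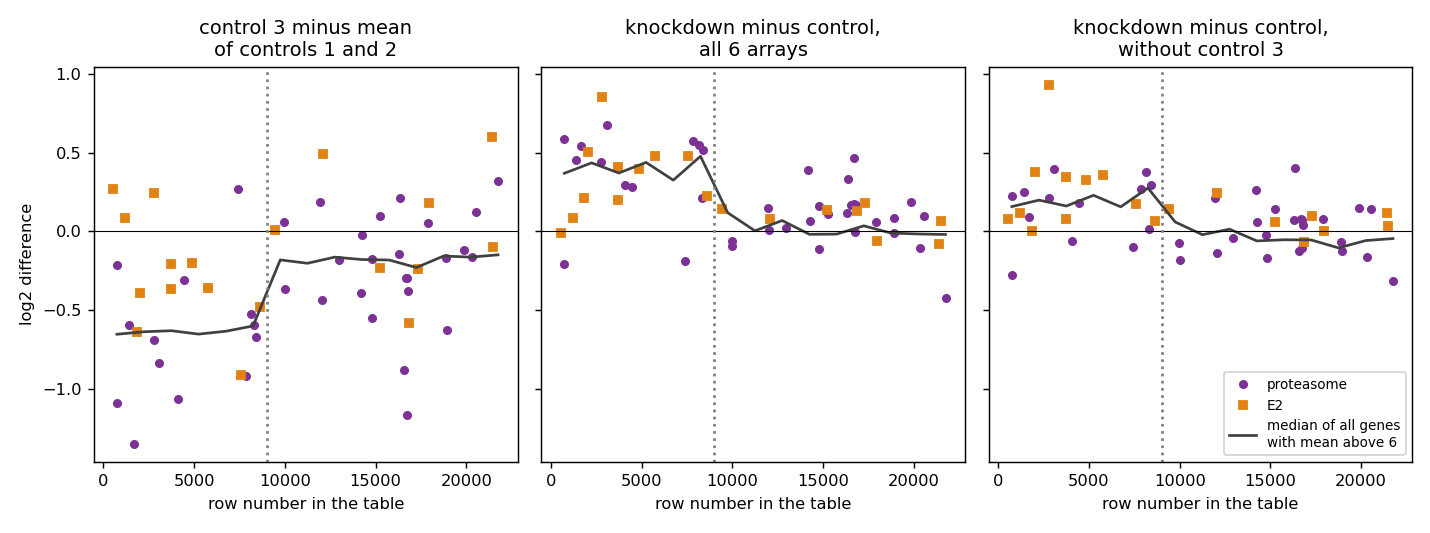
Log2 differences of the 56 members (points) against row number in the table, with the median of all genes above 6 in bins of 1500 rows (line) and the step after row 9015 (dotted). Left, control replicate 3 minus the mean of control replicates 1 and 2; middle, knockdown minus control over all 6 arrays; right, the same without control replicate 3. In the middle panel the median of bright genes was 0.41 before the step and 0.02 after it, and that of the members was 0.43 and 0.09.

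In the core particle, the alpha ring genes had differences of -0.11 for PSMA7, 0.06 for PSMA3, 0.11 for PSMA4, 0.15 for PSMA1, 0.52 for PSMA2 and 0.54 for PSMA5. PSMA5 had log2 values of 8.41, 9.12 and 8.74 in knockdown arrays, against 8.59, 8.74 and 7.31 in control arrays. Its control replicate 3 minus the mean of the other controls was -1.35, and without it the difference was 0.09. Without that array the differences of PSMA2 and PSMA7 were 0.29 and -0.16. A row that lists PSMA2 together with C7orf25 gave 0.83 with all arrays (limma adjusted p = 0.42). PSMA2 and PSMA5 stood before the step in the table and the other 4 after it.

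The non-catalytic beta ring genes were the role group with the highest median, 0.52 over 4 genes. PSMB1 had 8.09, 8.37 and 8.05 in knockdown arrays, against 7.79, 8.03 and 6.99 in control arrays (difference 0.57 ± 0.25 SE, limma adjusted p = 0.34). PSMB2 had 9.63, 9.69 and 9.68 in knockdown arrays, against 9.26, 9.57 and 8.82 in control arrays (0.45 ± 0.20 SE, limma adjusted p = 0.35). In both genes the groups did not overlap, and control replicate 3 was the lowest array. PSMB4 had a difference of 0.59 and PSMB3 of 0.46, both with overlap. Without control replicate 3 the differences were 0.27 for PSMB1, 0.25 for PSMB2, 0.22 for PSMB4 and 0.07 for PSMB3. PSMB3 stood after the step, yet its control replicate 3 minus the mean of the other controls was -1.17.

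The genes of the proteolytic sites had smaller differences. All 3 stood after the step, as did PSMB3, while PSMB1, PSMB2 and PSMB4 stood before it. The 2 role groups were thus unequal in place in the table, and the differences varied with that place. PSMB5, which carries the chymotrypsin-like activity and is the main target of bortezomib, had 8.03, 8.06 and 8.47 in knockdown arrays, against 8.16, 8.26 and 7.66 in control arrays (0.16 ± 0.21 SE, and -0.02 without control replicate 3). PSMB6, of the caspase-like site, had 6.30, 6.55 and 7.32 in knockdown arrays, against 6.46, 7.25 and 5.97 in control arrays, a difference of 0.17 ± 0.33 SE that was -0.13 without control replicate 3 and -0.13 without knockdown replicate 3. PSMB7, of the trypsin-like site, had 8.84, 8.95 and 8.92 in knockdown arrays, against 9.17, 9.01 and 8.72 in control arrays (-0.06 ± 0.17 SE, and -0.19 without control replicate 3). In all 3 genes the groups overlapped. The 95% intervals ran from -0.30 to 0.62 for PSMB5, from -0.57 to 0.90 for PSMB6 and from -0.44 to 0.32 for PSMB7, so that a 2-fold change lay outside each.

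Interferon-inducible subunits replace the proteolytic ones in the immunoproteasome. PSMB8 was dim, with 3.16, 3.04 and 3.10 in knockdown arrays, against 3.07, 3.33 and 3.47 in control arrays, all below the median of genes on their array (-0.19 ± 0.17 SE, limma adjusted p = 0.59, and -0.10 without control replicate 3). PSMB10 had 5.85, 5.45 and 5.96 in knockdown arrays, against 5.27, 5.43 and 5.56 in control arrays (0.33 ± 0.18 SE, limma adjusted p = 0.42), with 1 knockdown array inside the control range. The 2 values differed in sign.

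In the regulatory particle the ATPase genes had differences of 0.01 for PSMC3, 0.08 for PSMC4 and 0.55 for PSMC2. Without control replicate 3 those of PSMC3 and PSMC4 were -0.14 and -0.13. PSMC2 had 7.74, 8.27 and 7.79 in knockdown arrays, against 7.18, 7.94 and 7.03 in control arrays, and was the only one of the 3 before the step. Of the base scaffold, PSMD1 had a difference of 0.44 and PSMD2 of 0.29, which without control replicate 3 were 0.21 and -0.06. PSMD4, a ubiquitin receptor, had 4.51, 4.50 and 5.42 in knockdown arrays, against 5.22, 4.97 and 4.88 in control arrays (-0.21 ± 0.25 SE). Its knockdown replicate 3 lay above every control array and the other 2 knockdown arrays below, and the difference was -0.51 without knockdown replicate 3. A row that lists PSMD4 with other symbols gave 0.24.

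The 5 lid genes had a median of 0.06 and ran from -0.01 to 0.28, the highest being PSMD6, at 0.18 without control replicate 3. PSMD11, a lid subunit, had 7.40, 7.43 and 7.38 in knockdown arrays, against 7.28, 7.38 and 7.03 in control arrays (0.17 ± 0.16 SE). The lowest knockdown value and the highest control value were equal as rounded here, and the difference was -0.01 after quantile normalization and 0.07 without control replicate 3. PSMD3, PSMD8 and PSMD12 lay between -0.01 and 0.06, and PSMD3 and PSMD8 were at -0.10 and -0.07 without that array.

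Assembly chaperones had a median of 0.02 over 5 genes. PSMD10 (gankyrin, a chaperone of the regulatory particle base) had the lowest difference of all members, -0.43, with 7.20, 7.56 and 6.52 in knockdown arrays, against 7.32, 7.51 and 7.73 in control arrays. Knockdown replicate 3 was the low array, replicate 2 lay inside the control range, and the limma adjusted p was 0.45. Without knockdown replicate 3 the difference was -0.14. The other chaperone genes ran from -0.10 for PSMD5 to 0.21 for PSMG3, with PSMD9 and PSMG1 at 0.02 and 0.10. Without control replicate 3 PSMG3 was at 0.01 and PSMD9 at -0.04.

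Alternative activators open the core particle without the regulatory particle. PSME4 (PA200, a nuclear activator) had the highest difference of the proteasome genes, 0.68 ± 0.27 SE (limma adjusted p = 0.30). Its values were 5.94, 6.49 and 5.97 in knockdown arrays, against 5.51, 5.97 and 4.90 in control arrays, so that control replicate 2 reached the lower knockdown arrays. The difference was 0.40 without control replicate 3 and 0.93 without control replicate 2, and its lowest adjusted p under any alternative was 0.072, without control replicate 2. PSME1, a subunit of the interferon-inducible PA28 ring, had 7.47, 7.54 and 7.49 in knockdown arrays, against 7.18, 7.30 and 6.85 in control arrays (0.39 ± 0.17 SE, limma adjusted p = 0.34), without overlap. It stood after the step and its difference was 0.26 without control replicate 3.

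PSME2, the partner of PSME1 in that ring, differed from it in pattern. It had 5.60, 7.07 and 6.07 in knockdown arrays, against 6.22, 6.61 and 6.24 in control arrays (-0.11 ± 0.32 SE, and -0.17 without control replicate 3). The 3 knockdown arrays spanned the whole control range, and the difference ran from -0.52 to 0.21 as single arrays were left out. PSME3, which forms a nuclear activator of its own, had 7.26, 7.56 and 7.39 in knockdown arrays, against 7.29, 7.44 and 6.98 in control arrays (0.17 ± 0.18 SE, and 0.04 without control replicate 3). PSMF1, which encodes the inhibitor PI31, had 5.66, 5.62 and 5.60 in knockdown arrays, against 5.40, 5.56 and 5.36 in control arrays (0.19 ± 0.16 SE), without overlap. Of the 37 genes counted here 1, PSME3IP1, encodes a protein that binds PSME3 and no subunit, and its difference was 0.12, or 0.07 without control replicate 3.

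**Figure D4:**
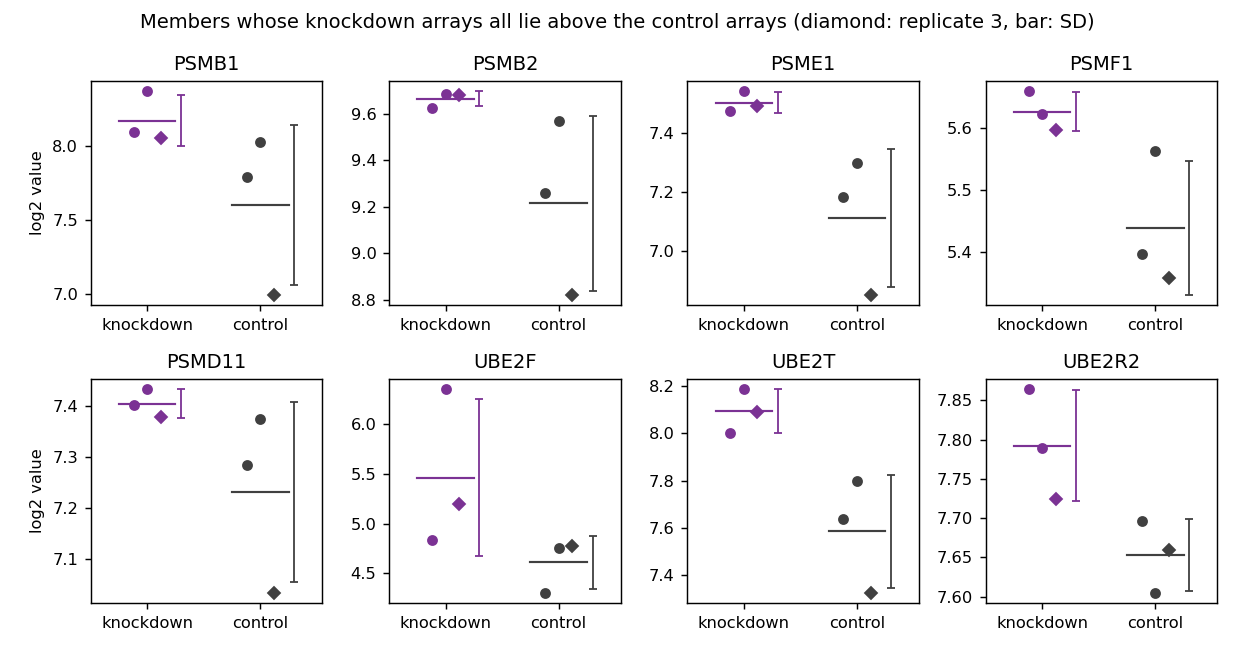
Log2 values of the 8 members whose 3 knockdown arrays all lay above the 3 control arrays, each on its own scale, with the group mean (horizontal line) and SD (bar, n = 3). Diamonds mark replicate 3, which is the lowest control in 6 of the 8 genes, all but UBE2F and UBE2R2. After quantile normalization the difference of PSMD11 was -0.01 and that of UBE2R2 was -0.04.

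Among the E2s, UBE2F, which carries the ubiquitin-like protein NEDD8 to cullins, had the largest difference of all members, 0.85 ± 0.33 SE (limma adjusted p = 0.30). Its values were 4.84, 6.35 and 5.20 in knockdown arrays, against 4.31, 4.76 and 4.77 in control arrays, without overlap. Knockdown replicate 2 was far above the rest, and without it the difference was 0.41. It did not rest on control replicate 3, without which it was 0.93. The lowest adjusted p under any alternative was 0.084, with the replicate number as a block. A row that lists UBE2F together with SCLY gave 0.15 (limma adjusted p = 0.67). RefSeq lists 3 pseudogenes named after UBE2F, whose transcripts may share its probes.

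UBE2T, the E2 of the Fanconi anaemia DNA repair pathway, had 8.0, 8.19 and 8.09 in knockdown arrays, against 7.64, 7.80 and 7.33 in control arrays (0.51 ± 0.18 SE, limma adjusted p = 0.25), without overlap. The difference was 0.38 without control replicate 3 and 0.19 after quantile normalization within each side of the step. UBE2B, one of the RAD6 pair that acts on histone H2B and on the replication clamp, had 7.43, 7.91 and 7.75 in knockdown arrays, against 7.15, 7.53 and 6.98 in control arrays (0.48, limma adjusted p = 0.32), with knockdown replicate 1 below control replicate 2. After quantile normalization within each side of the step the UBE2B difference was 0.13. Its paralog UBE2A, on the X chromosome, had 0.07. UBE2H had 0.23. Without control replicate 3 UBE2A had 0.03 and UBE2H had 0.07.

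E2s that build chains on substrates of cullin ligases or elongate them had differences of 0.14 for UBE2R2, 0.18 for UBE2G1 and 0.40 for UBE2K, and that of UBE2G1 was 0.10 without control replicate 3. UBE2R2 had 7.86, 7.79 and 7.72 in knockdown arrays, against 7.70, 7.61 and 7.66 in control arrays (0.14 ± 0.15 SE), without overlap. UBE2K had 2 rows that disagreed: the brighter, used here, gave 0.40 and the other -0.04. E2s of the endoplasmic reticulum membrane, which serve the degradation of misfolded proteins there, had 0.48 for UBE2J1 and 0.09 for UBE2J2. For UBE2J1 control replicate 3 minus the mean of the other controls was -0.91, and its difference without that array was 0.17.

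The paralogs UBE2E1 and UBE2E2 had 0.20 and 0.41, and UBE2E1 had 0.08 without control replicate 3. UBE2L6, which carries the interferon-induced modifier ISG15, had 4.72, 4.54 and 5.17 in knockdown arrays, against 4.39, 4.74 and 5.06 in control arrays (0.08 ± 0.22 SE, and 0.24 without control replicate 3), and the groups overlapped. UBE2Z, charged by the E1 enzyme UBA6, had 0.13, and UBE2Q1, UBE2Q2, UBE2O and UBE2U had 0.21, 0.13, -0.06 and -0.01. UBE2U lay between 2.08 and 2.36 on all arrays. The last member, UBE2DNL, had -0.08. Without control replicate 3 the differences were -0.07 for UBE2Z, 0.00 for UBE2Q1 and UBE2O, 0.06 for UBE2Q2, 0.08 for UBE2U and 0.12 for UBE2DNL.

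Other genes of the pathway were read from a list of ubiquitin genes, E1 enzymes, proteasome-bound factors, shuttle factors, transcription factors and E3 ligases, of which 45 of 57 were measured outside chromosomes 8 and 13. None passed at an adjusted p under 0.05 (lowest 0.24, limma), 7 were higher and 0 lower at an unadjusted p under 0.05, and 33 had a positive difference, with a median of 0.20. Over all genes tested 8.26% were higher at that p and 39.3% positive, and among genes above 6 these shares were 18.7% and 70.0%. The largest differences were those of UCHL5, a deubiquitinase bound to the proteasome, at 0.82, of UBA3, the catalytic part of the NEDD8 E1, at 0.80, and of UBA6, a second E1 for ubiquitin, at 0.79. UBA6 had 5.97, 6.34 and 5.71 in knockdown arrays, against 5.26, 5.70 and 4.68 in control arrays, and the groups did not overlap. All 3 stood before the step, control replicate 3 minus the mean of the other controls was -0.82 for UCHL5, -1.11 for UBA3 and -0.80 for UBA6, and without that array the differences were 0.54, 0.44 and 0.52. NFE2L1 itself had 5.99, 5.71 and 5.95 in knockdown arrays, against 6.20, 6.29 and 5.60 in control arrays, a difference of -0.15 with overlap that was -0.36 without control replicate 3. UBB, a gene of polyubiquitin, had 0.07.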

How the data were processed

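Log2 expression values of 6 arrays (Affymetrix whole-transcript, biotin-labelled amplified cDNA) were used as the authors deposited them. They were made with Partek Genomics Suite per the labels and the study's methods. For its version, background correction and normalization: not given in the sources used here. No detection values were used, so dim genes may be compressed. Groups and replicate numbers came from the sample titles. Titles call the replicates biological, but nothing says that they were separate cultures, so p-values may measure technical spread between arrays, whose number limits precision.

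Of 22011 rows, 14432 had 1 symbol in the platform annotation, giving 14232 genes. Of 83 listed subunits, cofactors and E2s, 54 were measured by such a row, and 2 members (PSME3IP1 and UBE2DNL) matched by symbol only. Another 2 genes lay on chromosome 8 or 13. The other listed genes were not analysed here, and 1 E2 gene is not reported here. A further 16 rows listed a matching symbol among several, and none of them passed (lowest limma adjusted p = 0.37). Their log2 differences ran from -0.51 to 0.83. RefSeq named pseudogenes after 19 of the 56 members, so their probes may not be specific. Among these were UBE2Q2 with 11, PSME2 with 6, and PSMA2, PSMD10 and UBE2F with 3 each.

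The 3 knockdown arrays were set against the 3 control arrays in a fit over all genes (limma 3.58.1 under R 4.3.3), with empirical Bayes moderation and Benjamini-Hochberg adjustment. The fit was tested on simulated data with independent normal noise for each gene. These data held no shift of a whole array and no step, so the features of control replicate 3 were not covered. Members, lists and tests were chosen with earlier results of these data known. Members described with all values were those past the threshold, the 6 highest and 4 lowest without overlap in each set, and 25 chosen by function, of which 14 were measured. UBE2B, PSMA5, PSMC2 and PSMD10 were added after their values were seen. Other pathway genes were named if among the 3 largest, and NFE2L1 and UBB were added by role. Alternatives are given at the end. Quantile normalization within each side of the step was chosen after seeing the data.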

Additional observations from a re-analysis of the deposited data

How the results depend on the processing

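Under each of 15 alternatives to the fit the number of changed proteasome genes and of changed E2 genes was 0, as with all arrays, while genes changed over the whole table numbered 12 to 364. The proteasome median moved by more than the spread between arrays (0.15 on the log2 scale) after quantile normalization (-0.0169) and cyclic loess (-0.0251), and the E2 median moved by less than its spread (0.11) throughout. With single arrays left out the medians ran from 0.07 to 0.25 for proteasome genes and from 0.12 to 0.23 for E2 genes. After centring on the median 31 of 37 and 18 of 19 were positive, with medians of 0.24 and 0.26, beside 0.26 for all genes above 6. After quantile normalization on each side of the step, 22 of 37 and 14 of 19 were, with medians of 0.06 and 0.11, beside 0.04. The share of all genes that was positive under these settings was not counted. Whether replicate numbers pair the arrays could not be decided. Deviations from the group means correlated at -0.10, 0.47 and 0.31 for numbers 1, 2 and 3. Knockdown replicates 2 and 3 correlated best with the control of the same number, and knockdown replicate 1 with control replicate 3. Deviations from a mean of 3 arrays depend on one another, so these correlations are not independent. With the replicate block 364 genes changed in place of 85, none of them a member, and the set medians stayed at 0.16 and 0.18.

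Of 22 members described in full, 14 kept the sign of their difference under all alternatives. The others changed sign without passing the test: after quantile normalization and cyclic loess PSMB5 (-0.0169 and -0.0251), PSMD11 (-0.0102 and -0.0220), PSME3 (-0.0136 and -0.0289) and UBE2R2 (-0.0374 and -0.0575), and after centring on the median PSMB7 (0.0179). With single arrays left out PSMB5 ran from -0.0214 to 0.279, PSMB6 from -0.13 to 0.51, PSMB7 from -0.185 to 0.0369, PSME2 from -0.52 to 0.21 and UBE2L6 from -0.10 to 0.24. The cause was not tested.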
